A study of Mus musculus with 9 samples.

Results

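The genes described here encode the antioxidant and glutathione enzymes of 3T3-L1, an established mouse preadipocyte line that fills with lipid when treated with adipogenic hormones. A fixed list of 39 gene symbols defined the set, and all 39 were found among the 19094 genes listed in at least 1 sample. RNA was sequenced from whole cultures at day 0, day 4 and day 8 of differentiation, with 3 replicates per day. Day 0 cells were preadipocytes that had not received the induction medium of dexamethasone, IBMX (an inhibitor of phosphodiesterases) and insulin. By day 4 the induction medium had been replaced, after 2 days, by a maintenance medium that held insulin, and this was renewed at day 4 and kept until day 8. The study's methods state that cells of each stage were pooled before extraction and describe the samples as mixtures of RNA. No source states that the replicates came from separate cultures, so the p-values measure the spread between these samples, which may be technical. Between 18216114 and 20452144 expected counts (RSEM's estimate of the reads from each gene) were available per sample. Levels are given as FPKM, which is scaled to gene length and sample depth. Changes are given as log2 fold changes from edgeR's quasi-likelihood test. A gene was called upregulated or downregulated where it changed more than 2-fold with a Benjamini-Hochberg adjusted p below 0.05. Day 4 against day 0 is the early phase, day 8 against day 4 the late phase and day 8 against day 0 the whole process. The early and the late phase share the day 4 samples.

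Cells that burn or synthesise fatty acids produce superoxide and hydrogen peroxide. Superoxide dismutases turn superoxide into hydrogen peroxide, which catalase, glutathione peroxidases and peroxiredoxins then reduce to water. Glutathione peroxidases draw electrons from glutathione, most peroxiredoxins draw them from thioredoxin, and both carriers are recharged with NADPH. Glutathione transferases join glutathione to reactive lipids and foreign compounds. The transcription factor NRF2 (gene Nfe2l2), which KEAP1 holds back, drives many of these genes through antioxidant response elements in their promoters.

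The labels call the cells adipocytes at every day. Adipocyte markers were low at day 0 and high later, all 9 of them upregulated early, and their sum went from 146 ± 2.86 to 7132 ± 1272 and then 9278 ± 446 FPKM (mean ± SD, n = 3). The 7 fibroblast and preadipocyte markers summed to 4732 ± 136, 3309 ± 183 and 5599 ± 61.0 FPKM, most of it from the collagens Col1a1 and Col1a2. Early, 6 of the 7 were lower (background 33.7%) and Pdgfra was higher, by a log2 fold change of 0.84 (SE 0.05, adjusted p = 4.3e-10). Downregulated early were 2 (background 7.98%). These were Dlk1, an inhibitor of adipogenesis with means of 828, 181 and 415 FPKM, and Ly6a, with 167, 42.7 and 38.8 FPKM. Over the whole process 4 were higher, namely Pdgfra, Pdgfrb, Col1a1 and Col1a2, and 2 were lower, Dlk1 and Ly6a (background 34.8% and 36.2%). In such bulk samples, fewer cells of a type and less RNA per cell cannot be told apart. The extraction text of the labels speaks of DRG, but 8 genes of neurons and glia summed to only 1.85 to 2.24 FPKM in every sample. Of those genes Scn10a, a marker of sensory neurons, was listed at no more than 0.01 FPKM. Markers of macrophages summed to 1.37 to 2.19 FPKM over the 5 of 7 genes listed, led by Cd68, and those of endothelial cells to 0.22 to 0.57 FPKM over 5 genes.

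As a set, the antioxidant enzymes took a larger share of the transcriptome after induction. Their summed level rose from 3473 ± 115 FPKM at day 0 to 4978 ± 236 at day 4 and 5052 ± 18.9 by day 8 (n = 3, mean ± SD), which was 0.800%, 1.10% and 1.12% of all FPKM. No sample of day 4 or day 8 fell below 4726 FPKM and no sample of day 0 exceeded 3594 FPKM. The net gain from day 0 to day 8 was 1579 FPKM, and the microsomal transferases Mgst3 and Mgst1 made up 32.4% of it. Together with Txnip and Sod3 they made up 57.8%. The gain therefore came mostly from a few abundant transcripts.

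The filter on low counts kept 38 of the 39 genes, the exception being Gpx3. Early upregulation was called for 6 of the 38, against a background of 9.77% of all genes tested, and 0 were downregulated, against a background of 7.98% (17.8% in either direction). By adjusted p alone, with no requirement on fold change, 21 were higher (background 35.5%) and 8 were lower (background 33.7%, and 69.2% in either direction). Of the 38, 8 were lower at an unadjusted p under 0.05 in edgeR and none of these by more than 2-fold, and DESeq2, edgeR's exact test and limma also called 0 downregulated. In the late phase, 2 genes were upregulated (background 4.24%) and 1 was downregulated (background 2.81%, and 7.05% in either direction), shares near those of all genes. Without the fold change threshold 14 were higher (background 22.5%) and 8 were lower (background 22.7%, and 45.3% in either direction). The 8 became 14 without day 4 replicate 1 and 13 with library size alone. Over the whole process, 9 were upregulated (background 10.3%) and 0 were downregulated (background 7.7%, and 18.0% in either direction), with 24 higher (background 34.8%) and 6 lower (background 36.2%, and 71.0% in either direction) without the fold change threshold. At an unadjusted p, 6 were lower over the whole process, none of them by more than 2-fold, and DESeq2, edgeR's exact test and limma called 0 downregulated. The median log2 fold change of the 38 genes was 0.33 in the early phase, 0.02 in the late phase and 0.46 over the whole process, beside 0.02, -0.01 and -0.02 for all genes tested. A total of 11 genes were called in at least 1 comparison, and the other 27 tested genes changed by log2 fold changes between -0.83 and 0.98 in the early phase.

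**Figure D1:**
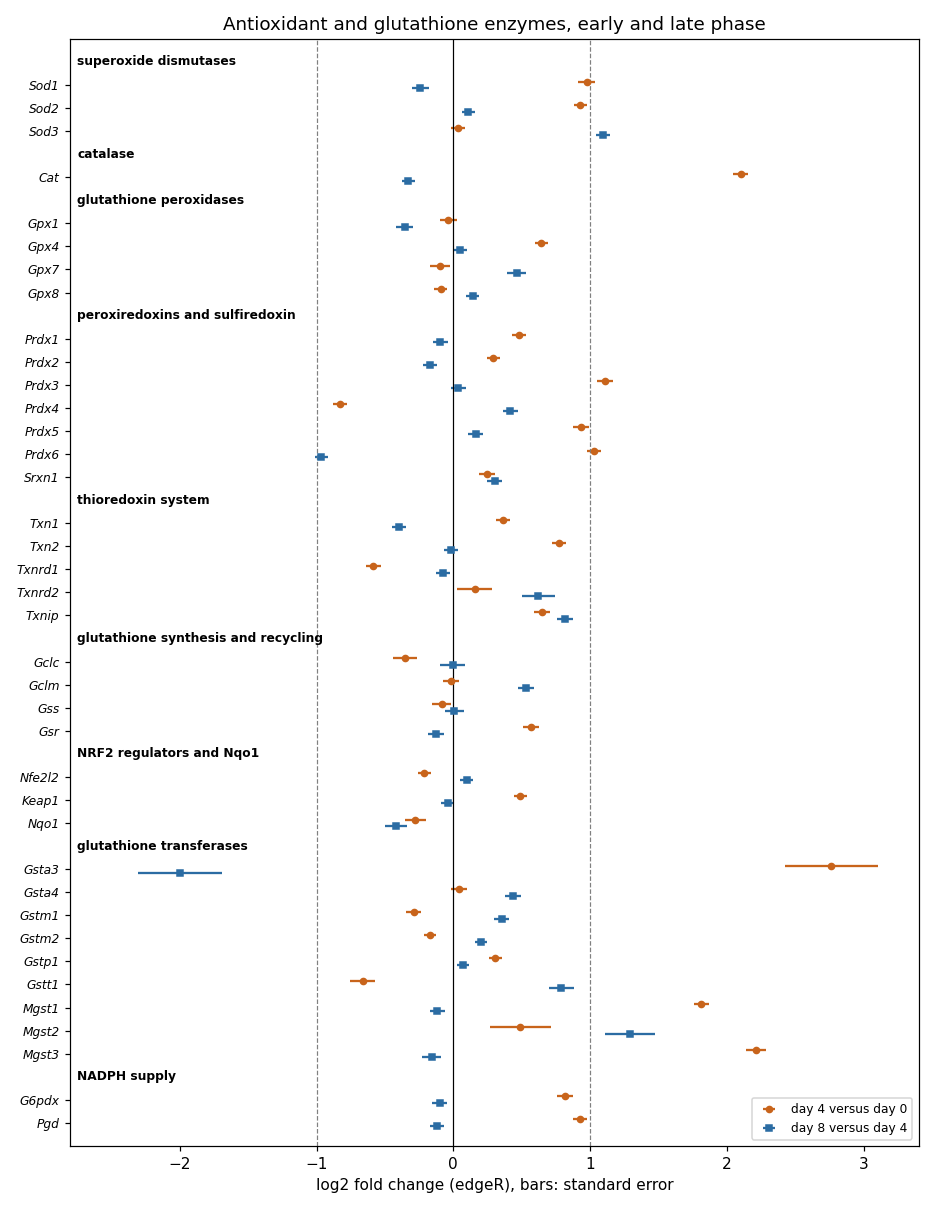
Log2 fold changes of the 38 tested genes (x axis) by role (y axis), with circles for day 4 against day 0, squares for day 8 against day 4, bars for the standard error and dashed lines at a 2-fold change. Cat, Mgst1, Mgst3 and Gsta3 lie farthest to the right in the early phase, Sod3 and Mgst2 pass the line only in the late phase, and Gsta3 alone falls beyond it.

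The 3 superoxide dismutases all rose over the whole process, at different times. Sod1 (NCBI gene ID 20655), the copper-zinc enzyme of the cytosol, had 228, 247 and 237 FPKM at day 0, 399.7, 445 and 491 at day 4 and 360.3, 359 and 375 at day 8. Every later sample was above every day 0 sample. Its early log2 fold change of 0.98 (SE 0.06, adjusted p = 8.1e-10) stayed just under the 2-fold threshold, and without day 4 replicate 1 it was 1.05. Sod2 (20656), the manganese enzyme of mitochondria, had 16.3, 16.2 and 15.2 FPKM at day 0, 27.7, 28.6 and 30.5 at day 4 and 30.3, 30.6 and 29.9 at day 8. It was called over the whole process, with a log2 fold change of 1.04 (SE 0.05, adjusted p = 1.6e-11), and fell under the 2-fold threshold with upper-quartile factors, library size alone or limma. Of the 50-base stretches of Sod2 transcripts, 21.0% are shared with other reference genes and 16.9% with genes listed in the files, so reads could be divided between them. Sod3 (20657), the secreted enzyme, behaved differently from both, with 204, 192 and 189.7 FPKM at day 0 and 197, 196 and 179.8 at day 4. At day 8 it had 395, 391 and 398 FPKM, above every earlier sample. Its late log2 fold change was 1.09 (SE 0.05, adjusted p = 9.3e-11), and its early one 0.04 (95% interval -0.07 to 0.14).

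Catalase, which breaks down hydrogen peroxide inside peroxisomes, rose sharply by day 4. Cat (12359) had 38.2, 42.7 and 41.8 FPKM at day 0, 158, 170.4 and 173 at day 4 and 129.9, 132 and 126 at day 8. The groups of all 3 days were separate. The early rise was 4.29-fold, a log2 fold change of 2.10 (SE 0.05, adjusted p = 1.2e-14), followed by a smaller late decrease of -0.33 (SE 0.05, adjusted p = 6.6e-05). At day 8 the level was still 3.42-fold that of day 0.

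None of the 4 glutathione peroxidases that passed the filter was called in any comparison, beside 17.8%, 7.05% and 18.0% of all genes called early, late and over the whole process, so that 0 of 4 is near the background. Their levels differed widely. Gpx4 (625249), which reduces lipid peroxides within membranes, was the most abundant, with 314 ± 2.31 FPKM at day 0, 468 ± 24.3 at day 4 and 471 ± 10.6 by day 8 (n = 3, mean ± SD). Its early log2 fold change was 0.64 (SE 0.05, adjusted p = 5.2e-09). Of the 50-base stretches of Gpx4 transcripts, 34.7% occur in other reference genes, none of them a gene listed in the files. Gpx1 (14775), the general cytosolic form, went the other way in the late phase. It had 134, 157 and 147 FPKM at day 0, 124, 139.6 and 144 at day 4, and 102, 106 and 101 at day 8, a late log2 fold change of -0.35 (SE 0.06, adjusted p = 0.00022). Gpx7 (67305), a form of the endoplasmic reticulum, rose late by 0.46 (SE 0.07, adjusted p = 7.5e-05), and Gpx8, which resides in the same compartment, by 0.14 (SE 0.05, adjusted p = 0.025). Gpx3 (14778), the secreted plasma form, was close to absent, with between 0 and 4 counts per sample. At these depths 3 counts correspond to 0.147 to 0.165 CPM, a floor that covers counting error only.

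**Figure D2:**
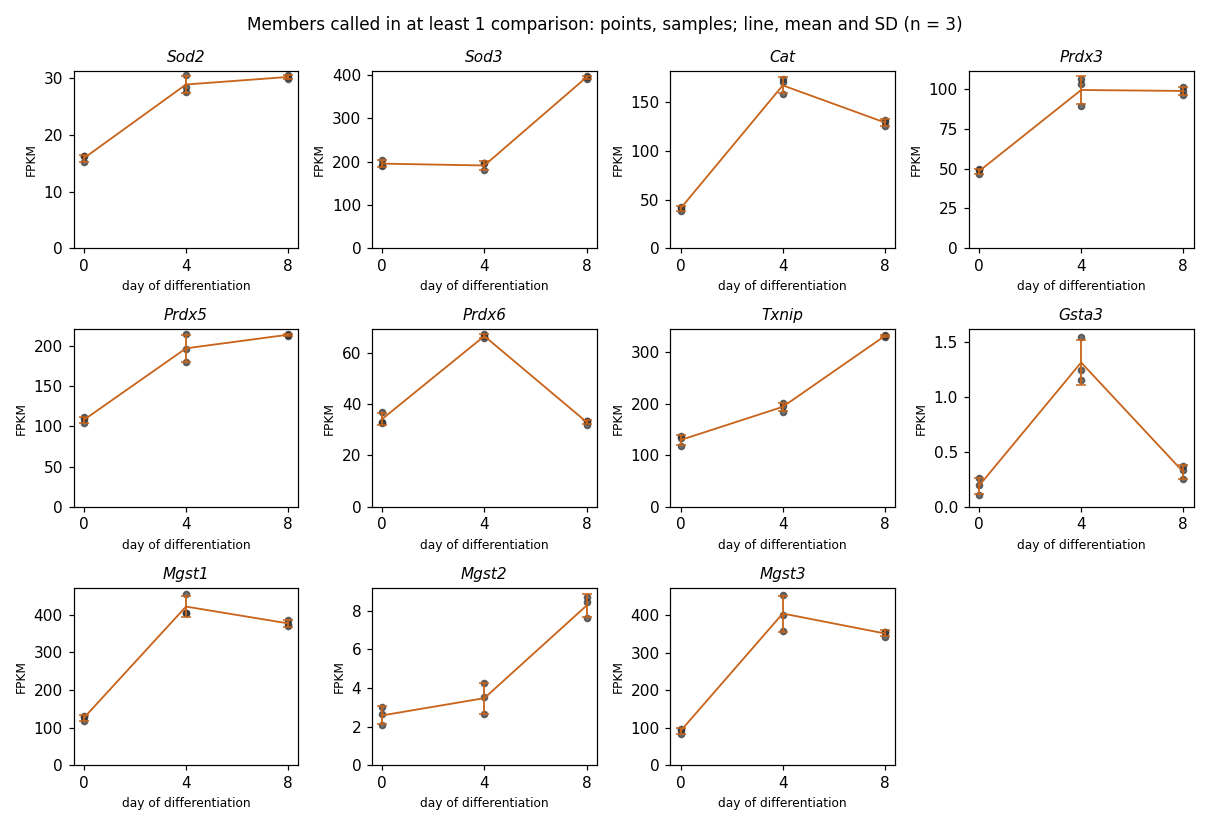
Level in FPKM (y axis, from 0) against the day of differentiation (x axis) for the 11 genes called in at least 1 comparison. Points are samples, and lines join the means with bars for the SD (n = 3). Prdx6 and Gsta3 peak at day 4, Sod3 and Mgst2 rise mostly after day 4, and Cat, Mgst1 and Mgst3 keep most of their early rise at day 8.

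Among the peroxiredoxins, 6 enzymes that reduce peroxides through a reactive cysteine, the direction differed by gene. Prdx3 (11757), the mitochondrial form, had 48.8, 49.5 and 46.5 FPKM at day 0, 89.1, 103 and 106 at day 4 and 101, 98.8 and 96.1 at day 8. It was upregulated early by a log2 fold change of 1.11 (SE 0.06, adjusted p = 8.4e-11) and held its level afterwards. Prdx5 (54683), found in mitochondria, peroxisomes and cytosol, had 104, 111 and 109 FPKM at day 0, 180.2, 196 and 214 at day 4 and 215, 212 and 214 at day 8. Its log2 fold change was 1.10 over the whole process (SE 0.06, adjusted p = 5.2e-11), and the call was lost at 0.99 with library size alone and at 0.98 and 0.99 with limma on log2(FPKM + 1) and log2(FPKM + 0.1). Prdx6 (11758), a form with a single active cysteine that also acts on phospholipids, was high at day 4 alone. Its levels were 33.1, 36.7 and 32.6 FPKM at day 0, 67.3, 66.3 and 65.7 at day 4 and 33.5, 31.9 and 33.6 at day 8. Day 0 and day 8 overlapped, and the day 4 samples stood above both. The early log2 fold change of 1.03 (SE 0.05, adjusted p = 2.1e-11) was called, while the late one of -0.96 (SE 0.05, adjusted p = 2.5e-10) missed the 2-fold threshold. Because both values lie so near it, the early call was lost at 0.98 with upper-quartile factors, at 0.96 with library size alone, at 0.94 and 0.96 with limma on log2(FPKM + 1) and log2(FPKM + 0.1), and at 0.997 without day 0 replicate 3.

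Prdx4 (53381), which works in the endoplasmic reticulum, showed the opposite course. It had 148, 165 and 163 FPKM at day 0, 85.4, 83.2 and 86.4 at day 4 and 114, 111 and 104 at day 8. Its early log2 fold change was -0.83 (SE 0.05, adjusted p = 5.1e-10), the lowest of the 38 genes, and its late one was 0.42 (SE 0.05, adjusted p = 7.4e-06). The abundant cytosolic forms moved less. Prdx1 rose early by 0.48 (SE 0.05, adjusted p = 6.4e-07) and Prdx2 by 0.29 (SE 0.05, adjusted p = 6.2e-05). Srxn1, sulfiredoxin, which repairs overoxidised peroxiredoxins, rose in both phases, by 0.25 (SE 0.06, adjusted p = 0.00099) and 0.30 (SE 0.06, adjusted p = 0.00031).

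In the thioredoxin system, the transcript of the inhibitor rose more than those of the carriers over the whole process, though not in the early phase. Txnip (56338), the thioredoxin-interacting protein, binds thioredoxin and restrains glucose uptake. It had 138, 118 and 132 FPKM at day 0, 196, 201 and 184 at day 4 and 329, 331 and 333 at day 8, with no overlap between days. The log2 fold changes were 0.65 early (SE 0.06, adjusted p = 5.8e-08), 0.82 late (SE 0.06, adjusted p = 1.2e-08) and 1.47 over the whole process (SE 0.06, adjusted p = 2.5e-12). Txn1, the cytosolic thioredoxin, rose by 0.36 (SE 0.05, adjusted p = 1.4e-05) and then fell by 0.40 on the log2 scale (SE 0.05, adjusted p = 1.5e-05). Txn2, the mitochondrial thioredoxin, rose by 0.77 early (SE 0.05, adjusted p = 1.5e-09) and had a late change of -0.02 (95% interval -0.13 to 0.09). The reductases that recharge them moved apart. Txnrd1 (50493), of the cytosol, had 34.3 ± 2.42 FPKM at day 0, 22.1 ± 0.45 at day 4 and 20.3 ± 0.81 by day 8 (n = 3, mean ± SD), a log2 fold change of -0.66 over the whole process (SE 0.05, adjusted p = 1.0e-08). Txnrd2 (26462), of mitochondria, was far less abundant and rose from 2.50 ± 0.30 to 3.96 ± 0.24 FPKM between day 0 and day 8, by a log2 fold change of 0.78 (SE 0.12, adjusted p = 2.8e-05).

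Sorted by the compartment in which the enzymes work, a grouping chosen after the values were seen, 5 mitochondrial enzymes (Sod2, Prdx3, Prdx5, Txn2 and Txnrd2) were all higher at day 8 than at day 0. Their log2 fold changes lay between 0.75 and 1.14, and 3 of the 5 were upregulated (background 10.3%). Of these 3, Sod2 and Prdx5 lost the call with library size alone, at 0.93 and 0.99, and with both limma fits. Their summed level went from 268 ± 5.26 FPKM at day 0 to 479 ± 38.7 at day 4 and 492 ± 5.02 by day 8 (n = 3, mean ± SD). Prdx5, which is also found in peroxisomes and cytosol, made up 108, 197 and 214 FPKM of these sums. In the early phase 4 of the 5 were higher and 0 lower (background 35.5% and 33.7%). Of 7 cytosolic enzymes (Sod1, Gpx1, Prdx1, Prdx2, Prdx6, Txn1 and Txnrd1), 5 were higher and 1 lower in the early phase, a share close to the mitochondrial one. In the late phase 5 of the 7 were lower (background 22.7%), beside 0 of the 5 mitochondrial enzymes, and over the whole process 3 were higher and 2 lower (background 34.8% and 36.2%). The sum of these 7 accordingly peaked at day 4, with 934 ± 53.7, 1271 ± 81.1 and 1032 ± 10.7 FPKM. This group leaves out other soluble members. The 6 soluble transferases had late changes from -1.99 to 0.79, with a median of 0.28. Srxn1 and Gclm rose late by 0.30 and 0.53, and G6pdx and Pgd changed by -0.10 and -0.12 (adjusted p = 0.17 and 0.081). The late count of lower genes therefore covers the 7 alone. For 3 enzymes of the endoplasmic reticulum (Prdx4, Gpx7 and Gpx8), the sum was lowest at day 4, with 249.9 ± 11.3, 167 ± 4.36 and 201 ± 6.60 FPKM. The dip was nearly all Prdx4, the 1 of the 3 that was lower early, while Gpx7 and Gpx8 had early changes of -0.10 (adjusted p = 0.24) and -0.09 (adjusted p = 0.099). All 3 were higher at day 8 than at day 4 (background 22.5%). The microsomal transferase Mgst1, also an enzyme of this compartment, was not in the grouping, and with its means of 126, 421 and 377 FPKM the sum would instead be highest at day 4. The difference between compartments was not tested.

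**Figure D3:**
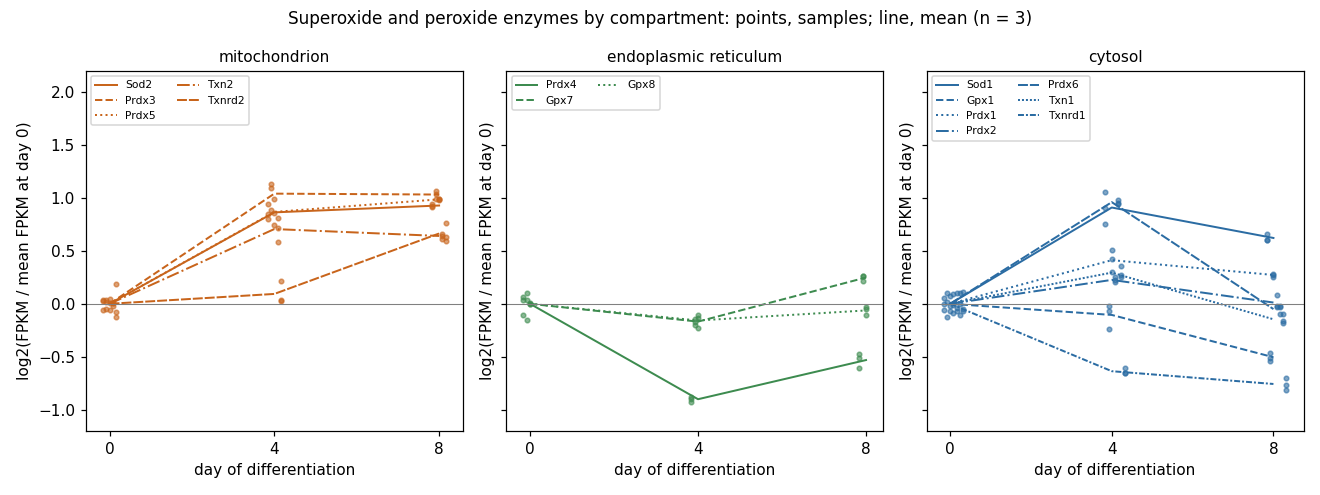
Log2 of the FPKM over the mean FPKM at day 0 (y axis) against the day of differentiation (x axis) for enzymes of mitochondria, endoplasmic reticulum and cytosol. Points are samples, set slightly apart sideways, and lines join the means (n = 3). All 5 mitochondrial lines end above 0, Prdx4 dips farthest at day 4, and Prdx6 returns to its starting level by day 8.

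The enzymes that make glutathione changed little. Gclc and Gclm encode the catalytic and the modifier subunit of glutamate-cysteine ligase, the first step of synthesis. Gclc had 7.87 ± 0.82 FPKM at day 0, 5.87 ± 0.25 at day 4 and 5.67 ± 0.62 by day 8 (n = 3, mean ± SD), and its early log2 fold change was -0.35 (SE 0.09, adjusted p = 0.0024). Gclm rose in the late phase instead, from 16.1 ± 0.42 to 22.5 ± 0.60 FPKM, by a log2 fold change of 0.53 (SE 0.06, adjusted p = 1.4e-06). Thus the subunits of this enzyme moved in opposite directions over the whole process. Gss, glutathione synthetase, showed no call in any comparison, with a whole-process change of -0.08 (95% interval -0.22 to 0.07). Gsr, which reduces oxidised glutathione with NADPH, rose early by 0.57 (SE 0.06, adjusted p = 3.5e-07).

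Around these members, a wider list of 48 glutathione genes was chosen to cover import, breakdown and use of glutathione, and 35 of them were tested. In the early phase 9 were upregulated and 3 were downregulated, and over the whole process 9 and 2, beside backgrounds of 9.77% and 7.98% early and 10.3% and 7.7% over the whole process. Slc7a11 (26570), the subunit of the cystine importer that feeds glutathione synthesis, fell from 1.80 to 0.38 FPKM by day 4, a log2 fold change of -2.19 (SE 0.13, adjusted p = 3.4e-10). Chac1, which degrades glutathione inside cells, dipped and recovered, with 38.0, 13.2 and 43.3 FPKM on average at day 0, day 4 and day 8. Dpep1 and Ggt5, which cleave glutathione or its products outside cells, rose early by log2 fold changes of 4.28 (SE 0.07, adjusted p = 4.8e-17) and 3.43 (SE 0.11, adjusted p = 1.4e-13). Glrx, glutaredoxin, which removes glutathione from proteins, rose early by 1.89 (SE 0.05, adjusted p = 3.6e-14). Gstz1 (14874), a transferase of tyrosine breakdown, rose in both phases, from 18.9 to 93.1 and then 154 FPKM on average.

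The transcripts of NRF2 and its inhibitor KEAP1 moved by small amounts, and those of some of their partners by more. The amount and activity of the proteins were not measured here. Nfe2l2 (18024) had 49.0, 50.4 and 52.6 FPKM at day 0, 42.1, 42.5 and 40.0 at day 4 and 43.9, 43.2 and 42.5 at day 8. All day 0 samples were above all later samples, and the early log2 fold change was -0.21 (SE 0.05, adjusted p = 0.00071). Keap1 (50868) had 19.8, 19.9 and 19.9 FPKM at day 0, 25.9, 28.2 and 26.8 at day 4 and 25.7, 24.7 and 25.1 at day 8. It was higher in every later sample than in every day 0 sample, by an early log2 fold change of 0.49 (SE 0.05, adjusted p = 1.3e-07). Nqo1 (18104), a quinone reductase and a target of NRF2, decreased in both phases, from 41.6 ± 2.79 FPKM at day 0 to 32.7 ± 3.76 at day 4 and 23.8 ± 1.93 by day 8 (n = 3, mean ± SD). Its whole-process log2 fold change was -0.69 (SE 0.08, adjusted p = 1.0e-06). It was 1 of the 6 members of the set that were lower over the whole process, beside 24 that were higher (background 36.2% and 34.8%). Among 10 tested partners of NRF2, Maff was upregulated and Mafk downregulated over the whole process, by 1.09 (SE 0.14, adjusted p = 4.1e-06) and -1.11 (SE 0.07, adjusted p = 1.1e-09), while none was called in the early phase by edgeR, in which 2 were higher and 3 were lower without the fold change threshold. All genes tested gave 9.77% and 7.98% called early and 35.5% and 33.7% higher and lower early, and 10.3% and 7.7% called over the whole process. Bach1, a repressor at the same elements, had a whole-process change of -0.93 (SE 0.07, adjusted p = 5.5e-09).

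Further genes known as NRF2 targets moved in both directions in the early phase. Of 25 tested genes outside the set, 5 were upregulated and 4 were downregulated early (background 9.77% and 7.98%), 3 and 0 late (4.24% and 2.81%), and 6 and 3 over the whole process (10.3% and 7.7%). By adjusted p alone, 13 were higher and 10 lower early (background 35.5% and 33.7%), 14 and 4 late (22.5% and 22.7%), and 16 and 8 over the whole process (34.8% and 36.2%). The carbonyl reductases Cbr1 and Cbr3 were upregulated early, by 1.38 (SE 0.08, adjusted p = 2.9e-10) and 1.32 (SE 0.07, adjusted p = 4.1e-11). Hmox1, heme oxygenase, decreased early by 0.41 on the log2 scale and rose late by 1.38 (SE 0.07, adjusted p = 1.6e-10).

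Promoters were examined for the core of the antioxidant response element, spelled TGACNNNGC on either strand, in RefSeq windows of 250 bases before to 50 after each start (GRCm38.p6, which may not be the build used for the counts). Of the 39 genes, 34 had a promoter in the table, and 10 of the 34 (29.4%) held the core, beside 14.0% of all 27025 genes and 12.4% of all 32851 promoters. The sequences shown here were chosen after the values were seen, to show the core in genes that were higher early (Mgst1, Sod1, Prdx1 and G6pdx) and in genes that were not (Gclm and Txnrd1). They run 5′ to 3′ along the gene's strand, with the core, here as its reverse complement, in capitals.
Mgst1 at chr6:138140441-138140509, plus strand: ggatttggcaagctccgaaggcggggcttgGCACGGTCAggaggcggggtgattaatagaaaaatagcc
Sod1 at chr16:90220676-90220744, plus strand: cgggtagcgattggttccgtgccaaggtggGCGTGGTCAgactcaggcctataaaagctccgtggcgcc
Prdx1 at chr4:116685436-116685504, plus strand: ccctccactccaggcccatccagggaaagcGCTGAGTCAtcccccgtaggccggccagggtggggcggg
G6pdx at chrX:74428899-74428967, minus strand: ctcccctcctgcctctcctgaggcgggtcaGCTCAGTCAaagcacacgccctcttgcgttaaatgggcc
Gclm at chr3:122245393-122245461, plus strand: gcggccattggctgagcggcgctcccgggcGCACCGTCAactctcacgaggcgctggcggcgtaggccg
Txnrd1 at chr10:82859084-82859152, plus strand: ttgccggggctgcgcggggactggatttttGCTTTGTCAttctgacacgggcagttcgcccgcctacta
Genes with the core ranged from an early log2 fold change of -0.58 for Txnrd1 to 2.76 for Gsta3, and those without it from -0.83 to 2.21. Their median was 0.65 early over 10 genes, beside 0.31 over the 23 tested genes whose windows lacked it, in the late phase -0.10 beside 0.07, and over the whole process 0.63 beside 0.38. With the core, 2 of 10 were upregulated early and 1 over the whole process, and without it 3 of 23 and 7, beside backgrounds of 9.77% early and 10.3% over the whole process. By adjusted p alone, 7 of the 10 and 12 of the 23 were higher early (background 35.5%). A match describes the letters in the window and does not show that a factor binds there.

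Among the glutathione transferases, all 3 microsomal transferases, membrane proteins of the MAPEG family, were upregulated over the whole process, by log2 fold changes between 1.70 and 2.05 (background 10.3%). Of the 6 soluble transferases, none was upregulated over the whole process by edgeR, although 2 (Gsta4 and Gstp1) were higher at an adjusted p under 0.05 (background 34.8%), shares near those of all genes. The changes of the 6 lay between 0.03 and 0.77. The microsomal sum rose from 219.8 ± 13.9 FPKM at day 0 to 829.8 ± 75.6 at day 4 and 737 ± 15.01 at day 8, while the soluble sum went from 834 ± 35.2 to 854 ± 25.0 and 926 ± 11.5 (mean ± SD, n = 3). These families were set against each other after the values were seen, and the difference was not tested.

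Mgst1 (56615), an enzyme of the endoplasmic reticulum and outer mitochondrial membrane that also reduces lipid peroxides, had 118, 129.7 and 129 FPKM at day 0, 404, 405 and 454 at day 4 and 369, 385 and 376 at day 8. The rise by day 4 was 3.51-fold, a log2 fold change of 1.81 (SE 0.06, adjusted p = 9.7e-14). Mgst3 (66447), a related membrane enzyme, had 84.1, 97.5 and 93.2 FPKM at day 0, 359, 401 and 455 at day 4 and 343, 357 and 356 at day 8. Its early rise of 4.63-fold, a log2 fold change of 2.21 (SE 0.08, adjusted p = 3.1e-13), was accompanied by a wide spread at day 4. By their mean levels, Mgst1 and Mgst3 moved from rank 13 and 16 among the 39 genes at day 0 to rank 4 and 5 at day 4. Mgst2 (211666) remained scarce and rose later, with 2.08, 2.99 and 2.67 FPKM at day 0, 3.55, 2.63 and 4.24 at day 4 and 8.71, 7.60 and 8.47 at day 8. It rested on 25 to 102 counts per sample, and its late log2 fold change was 1.29 (SE 0.18, adjusted p = 3.1e-05). The wider list held further transferases of both kinds. Among its MAPEG genes, Ltc4s, leukotriene C4 synthase, rose from 6.73 to 26.3 and 66.2 FPKM on average, and Ptges, a prostaglandin E synthase, rose early by a log2 fold change of 1.15 (SE 0.05, adjusted p = 4.3e-12). Outside that family, Gstz1 rose over the whole process by 3.14 (SE 0.08, adjusted p = 1.6e-14), more than any of the 3 microsomal members, and Gstk1, a kappa class enzyme, by 1.13 (SE 0.14, adjusted p = 1.5e-06). Others went the other way, as Gsto1, an omega class enzyme, stood at -0.92 over the whole process (adjusted p = 2.5e-11). Gstm6, of the mu class, was downregulated early at -1.23 (SE 0.34, adjusted p = 0.0045), on 6 to 17.8 counts per sample. Its whole-process change of -0.59 (adjusted p = 0.11) was not called. The contrast between microsomal and soluble enzymes therefore covers the 9 members alone.

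Gstp1 (14870), the pi class transferase, was the most abundant of the 39 genes on every day, with 467 ± 16.2 FPKM at day 0, 551 ± 22.9 at day 4 and 560.4 ± 4.83 by day 8 (n = 3, mean ± SD). Its early log2 fold change was 0.31 (SE 0.05, adjusted p = 1.9e-05). It shares 33.7% of its 50-base stretches with Gstp2, so reads could be divided between them, although Gstp2 was given no more than 7.66 FPKM in any sample. Gstm1, Gstm2 and Gstt1 dipped at day 4 and returned. For Gstt1 (14871), a theta class enzyme, the changes were -0.66 early (SE 0.09, adjusted p = 7.8e-06) and 0.79 late (SE 0.09, adjusted p = 3.1e-06), and its day 4 samples, 8.71, 8.47 and 8.73 FPKM, lay below all others. Gsta3 (14859), an alpha class enzyme, had 0.26, 0.20 and 0.11 FPKM at day 0, 1.24, 1.15 and 1.54 at day 4 and 0.33, 0.25 and 0.37 at day 8. With only 3 to 42 counts per sample, it rose early by a log2 fold change of 2.76 (SE 0.34, adjusted p = 2.0e-06) and decreased late by -1.99 (SE 0.31, adjusted p = 6.4e-05). On log2(FPKM + 1) with limma both changes stayed under 2-fold, at 0.96 and -0.81.

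**Figure D4:**
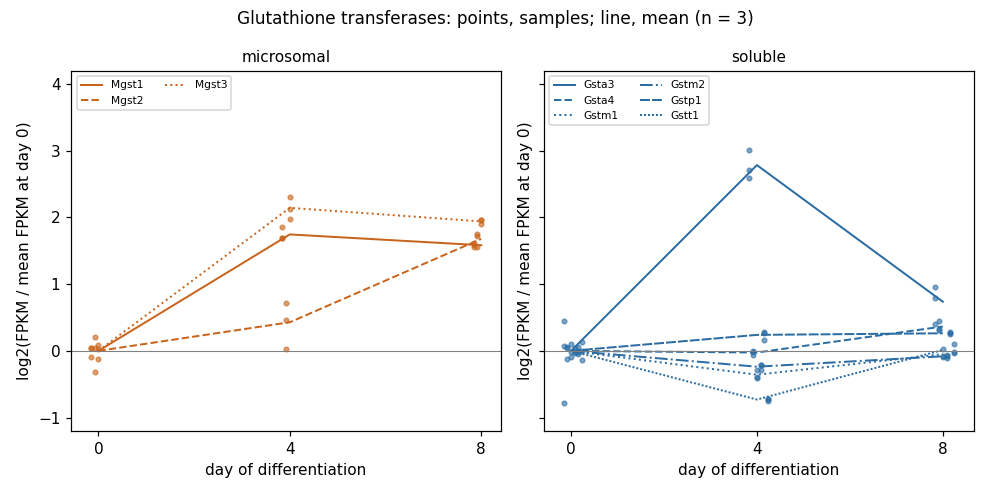
Log2 of the FPKM over the mean FPKM at day 0 (y axis) against the day of differentiation (x axis) for the 3 microsomal and the 6 soluble glutathione transferases. Points are samples, set slightly apart sideways, and lines join the means (n = 3). The microsomal lines all end well above 0, the soluble lines apart from Gsta3 stay close to 0, and Gstt1 dips at day 4.

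The pentose phosphate enzymes that supply NADPH rose side by side. G6pdx (14381), glucose-6-phosphate dehydrogenase, had 50.6 ± 4.02 FPKM at day 0, 85.2 ± 5.61 at day 4 and 77.0 ± 0.56 at day 8, and Pgd (110208), which carries out the next oxidation, had 46.2 ± 3.18, 83.65 ± 4.0 and 74.8 ± 0.26 FPKM (mean ± SD, n = 3). Their early log2 fold changes were 0.82 (SE 0.06, adjusted p = 3.0e-09) and 0.93 (SE 0.05, adjusted p = 2.0e-10), both under the 2-fold threshold. On the list of 17 other NADPH and pentose phosphate genes, 7 were upregulated and 1 was downregulated early (background 9.77% and 7.98%), and 6 and 0 over the whole process by edgeR (background 10.3% and 7.7%). Without the fold change threshold 13 were higher and 4 lower over the whole process (background 34.8% and 36.2%). Taldo1, transaldolase, rose early by a log2 fold change of 1.92 (SE 0.09, adjusted p = 9.1e-12), and H6pd, the counterpart of G6pdx in the endoplasmic reticulum, by 1.48 (SE 0.06, adjusted p = 2.7e-12). The cytosolic Idh1 and the mitochondrial Idh2, which make NADPH from isocitrate, rose early by 1.19 (SE 0.05, adjusted p = 3.9e-12) and 1.28 (SE 0.05, adjusted p = 1.2e-12). Only Idh2 then lost much of its rise, by a late change of -0.78 (SE 0.05, adjusted p = 2.1e-09) beside -0.16 for Idh1 (SE 0.05, adjusted p = 0.016).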

How the data were processed

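RNA-seq of 9 samples was used, 3 each at day 0, day 4 and day 8. The authors filtered the reads, mapped them with HISAT/Bowtie2 and ran RSEM; CASAVA 1.4 and Bowtie2 are named in the submitters' processing notes, and the genome build is not given in the sources used here. The deposited expected counts are RSEM's estimates without normalization (29.8% are not whole numbers), and the FPKM deposited beside them are relative to gene length and depth. The methods name an Illumina platform, the labels a BGIseq500 kit.

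Rounded expected counts were fitted with edgeR 4.0.16 under R 4.3.3 (filterByExpr, TMM, glmQLFit, glmQLFTest, a coefficient per day, all 9 samples in the model). The filter kept 13154 genes, over which p-values were adjusted. The standard error is the log2 fold change divided by the square root of F. Alternatives were other scaling factors and filters, DESeq2 1.42.0, edgeR's exact test (such a test is one of the methods the study describes, beside NOIseq and PossionDis), limma 3.58.1 on log2(FPKM + 1) and log2(FPKM + 0.1), separate models per comparison, a replicate block and leaving out each sample. The edgeR and DESeq2 fits were run on simulated counts for the early phase, with changes well above 2-fold and without low-count genes. That simulation does not cover changes near 2-fold or genes with few counts. Replicates differed by more than counting noise (chi-square per gene 2.40 to 10.7 in 9 pairs), so none were merged. To find shared sequence, GENCODE vM21 transcripts were compared in stretches of 50 bases. Shares are given in the results for genes above a threshold of 20%. Gstm1 lay just below it, with 18.9% shared with other reference genes and 8.88% with genes listed in the files.

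The 39 genes and the wider lists were chosen with earlier results of these data known. Values per sample are given for genes called in at least 1 comparison and for Nfe2l2 and Keap1, and genes of the wider lists could be named if called in at least 1. Full values of Gpx1, Gpx4, Prdx4, Sod1, Gstp1 and Gstt1, and the names Bach1, Gstp2 and Gsto1, were chosen after their values were seen, as were the wider-list examples among those called. Of the wider lists, genes with no entry in the files were not analysed here.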

Additional observations from a re-analysis of the deposited data

How the results depend on the processing

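No member changed direction under the 20 alternatives where its adjusted p was under 0.05. Of the values for single genes under alternatives, 2259 kept their side of the threshold, 14 lost it and 3 gained it, all of them for Prdx6, Gsta3, Sod1, Sod2 and Prdx5. The 1 gene downregulated in the late phase, Gsta3, became 2 genes with library size alone and with limma on log2(FPKM + 0.1), and 0 with limma on log2(FPKM + 1) and with the filter of at least 10 counts in every sample, which removes Gsta3. The 8 genes lower in the late phase at an adjusted p alone became 13 with library size alone and 7 to 14 when 1 sample was left out, the 14 coming without day 4 replicate 1. Library size alone moved the median log2 fold change of all genes over the whole process to -0.13. Same-numbered samples had correlations of deviations from the day means between -0.03 and 0.07 (mean 0.03). Differently numbered samples had -0.10 to 0.06 (mean -0.02). Of the 9 samples, 4 correlated best with their own number in both other days. These values do not settle whether the numbers are pairs. The main fit did not take them as pairs, and the replicate block was run beside it. With the replicate block, 6 genes were upregulated early, 2 late and 9 over the whole process, 21, 14 and 24 were higher and 8, 9 and 5 lower at an adjusted p alone. Depth limits Gsta3, Mgst2 and Gpx3.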

Other observations

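Genes that produce oxidants were also measured, and 11 of the 25 listed passed the filter, of which 2 were upregulated and 2 downregulated early, where 9.77% and 7.98% of all genes tested were. Nox4, an NADPH oxidase, was downregulated early by a log2 fold change of -1.08 (SE 0.12, adjusted p = 7.7e-07) and stood at -1.42 over the whole process (SE 0.13, adjusted p = 4.4e-08). Xdh, xanthine dehydrogenase, peaked at day 4, with 80.2, 160.3 and 38.96 FPKM on average at day 0, day 4 and day 8. Ero1l, an oxidase of the endoplasmic reticulum that forms disulfide bonds, rose late by 2.43 (SE 0.13, adjusted p = 4.3e-10), and its day 8 samples had 178, 241 and 278 FPKM. Among 22 tested thiol repair genes, 3 were upregulated and 1 was downregulated early (background 9.77% and 7.98%), and Msra, which repairs oxidised methionine, rose from 3.32 to 10.9 and 18.6 FPKM on average. Of 14 tested selenoproteins outside the set, Selenop, the selenium carrier, was the 1 called early (background 17.8% in either direction), with a log2 fold change of 1.51 (SE 0.06, adjusted p = 1.1e-12). Over the whole process 0 of the 14 were called (background 18.0% in either direction). Of 12 tested genes around selenocysteine and selenium binding, 2 were upregulated and 1 was downregulated early (background 9.77% and 7.98%). Lrp8, a receptor for that carrier, fell from 1.3 to 0.28 FPKM on average by day 4.

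The day 4 replicates differed in adipocyte markers, whose 9 genes summed to 5921, 7017 and 8458 FPKM in replicates 1, 2 and 3. Of the 21 antioxidant genes higher in the early phase, 17 were lowest among the day 4 samples in replicate 1, and 15 were highest in replicate 3. Over all 38 tested genes the counts were 23 and 22. At day 0, replicate 2 was highest for 17 of the 21 and 29 of the 38. The marker sums there were 149, 144 and 144 FPKM, and replicate 2 had the fewest expected counts of all samples, 18216114. At day 4, Mgst3 had 359, 401 and 455 FPKM. These counts order FPKM within each day. The same ordering was not counted over all genes tested, so it is not shown to be particular to the antioxidant genes. The part of the markers in these values was not tested.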
